A study of Mus musculus with 9 samples.

Results

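The genes for the protein parts of the small nuclear ribonucleoproteins (snRNPs) and of the related Lsm complexes were followed in mouse epidermis with and without the Epithelial splicing regulatory proteins (Esrps). Members were the rows of the expression table whose symbol starts with Snrp, Sf3a, Sf3b or Lsm, without the pseudogene ending "-ps", and whose mean over the 9 libraries was at least 1 FPKM (fragments per kilobase of transcript, scaled to the mapped fragments of the library). Of the 38203 genes in the table, 34 matched by symbol, 1 of them carried the pseudogene ending, and the remaining 33 all reached 1 FPKM. The symbol and the mean level chose the members, so the levels below describe them and test nothing. The lowest member was Lsm7 with a mean of 1.18 FPKM, followed by Lsm11 with 2.71 FPKM, and no gene with a matching symbol lay just below the line. Lsm7 averaged 0.78 FPKM in WT and 0.80 FPKM in KH and reached the line only through KO and DKO, so the rule favoured its difference from WT and KH, and the counts that turn on it most are repeated for the 32 other members. All 33 were among the 16897 genes that were tested.

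RNA was sequenced from the full thickness epidermis of single E18.5 mouse embryos on a mixed C57BL6/129Sv background, in 9 libraries of 4 genotypes. WT embryos were labelled wild type for both genes (n = 2), KO embryos lacked Esrp1 and kept both Esrp2 alleles (n = 3), KH embryos lacked Esrp1 and were heterozygous for Esrp2 (n = 2), and DKO embryos lacked both genes (n = 2). The protocol text lists the controls instead as Esrp2-/-, but Esrp2 stood at 118 and 136 FPKM in the WT libraries and at 0.08 and 0.05 FPKM in the DKO libraries. Esrp1 stood at 119 and 142 FPKM in WT and between 18.2 and 55.1 FPKM in the other 7 libraries. Its knockout allele removes an internal block of exons and the remaining transcript is still counted, so the residual value does not measure intact mRNA. KO, KH and DKO embryos came from different crosses, so among these 3 genotype and cross cannot be told apart. Xist, the RNA of the inactive X chromosome, stood at 76.2 FPKM or more in all 3 KO libraries and in WT replicate 2 and at 0.18 FPKM or less elsewhere, so every KO library was female and every KH and DKO library male. Keratins of the basal and spinous layers were abundant in all 9 libraries, while the summed markers of muscle and of endothelium were at most 1.02 and 0.36 FPKM. The summed dermal fibroblast markers ranged from 44.2 to 150 FPKM, nearly all of it Dcn at 42.3 to 136 FPKM, and were highest in KO replicate 1 and KH replicate 1, while Col1a1 of the same list was at most 2.65 FPKM.

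An snRNP is a small RNA of the spliceosome wrapped in a ring of Sm proteins, which Smn1 and its partners load in the cytoplasm. The U1 and U2 particles carry proteins of their own, and U2 also holds the SF3a and SF3b complexes, which grip the branch point of the intron. Lsm proteins form like rings, one around U6 in the nucleus and one around the ends of mRNAs that are to be decapped in the cytoplasm. The spliceosomal factors among these serve nearly all introns in every cell, whereas Esrps bind particular transcripts in epithelia and steer alternative exons.

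By role, 8 members were Sm ring genes (Snrpb, Snrpd1, Snrpd2, Snrpd3, Snrpe, Snrpf, Snrpg and Snrpn), 4 encode proteins of U1 or U2 (Snrpa and Snrpc of U1, Snrpa1 and Snrpb2 of U2), 3 were SF3a genes, 5 were SF3b genes and 7 were Lsm ring genes (Lsm1 to Lsm7). The other 6 were Lsm10 and Lsm11 of the U7 particle that cuts histone pre-mRNA, Lsm12, the translational regulators Lsm14a and Lsm14b, and Lsmd1. Lsmd1 was taken by its symbol only and is named Naa38 in GENCODE. The table names Lsm8 and Sf3b6 by other symbols, and these are given apart from the members.

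The sequence before the start of transcription is shown for 5 members that lie at different places in the comparison below. Snrpa and Lsm6 were among the genes with the largest values in DKO relative to WT, Sf3a1 and Sf3b2 were nearly level, and Lsm14b had the lowest. Each line holds the 250 bases before the RefSeq start on build GRCm38.p6, read 5′ to 3′ on the strand of the gene, with the motifs searched in capitals. The windows are chr7:27196272-27196521 on the minus strand for Snrpa, chr8:78821153-78821402 on the minus strand for Lsm6, chr11:4160104-4160353 on the plus strand for Sf3a1, chr19:5295456-5295705 on the minus strand for Sf3b2 and chr2:180024737-180024986 on the plus strand for Lsm14b.
Snrpa: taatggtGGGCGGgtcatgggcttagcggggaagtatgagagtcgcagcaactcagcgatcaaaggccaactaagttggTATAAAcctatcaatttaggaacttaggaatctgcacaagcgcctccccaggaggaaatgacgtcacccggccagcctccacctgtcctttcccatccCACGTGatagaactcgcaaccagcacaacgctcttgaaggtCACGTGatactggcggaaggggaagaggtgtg
Lsm6: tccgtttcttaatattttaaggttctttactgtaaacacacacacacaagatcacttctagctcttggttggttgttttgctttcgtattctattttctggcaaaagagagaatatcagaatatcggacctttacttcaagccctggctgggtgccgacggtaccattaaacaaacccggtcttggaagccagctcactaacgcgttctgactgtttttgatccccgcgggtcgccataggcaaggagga
Sf3a1: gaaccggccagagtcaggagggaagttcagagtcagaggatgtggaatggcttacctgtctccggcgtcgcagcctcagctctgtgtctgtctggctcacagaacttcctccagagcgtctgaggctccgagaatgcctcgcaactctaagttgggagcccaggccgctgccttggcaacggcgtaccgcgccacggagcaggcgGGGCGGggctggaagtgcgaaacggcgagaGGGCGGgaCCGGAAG
Sf3b2: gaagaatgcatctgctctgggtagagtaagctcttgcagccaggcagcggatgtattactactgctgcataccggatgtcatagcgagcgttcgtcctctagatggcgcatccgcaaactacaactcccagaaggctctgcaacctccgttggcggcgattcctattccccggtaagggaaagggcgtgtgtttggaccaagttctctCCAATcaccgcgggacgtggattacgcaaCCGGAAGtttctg
Lsm14b: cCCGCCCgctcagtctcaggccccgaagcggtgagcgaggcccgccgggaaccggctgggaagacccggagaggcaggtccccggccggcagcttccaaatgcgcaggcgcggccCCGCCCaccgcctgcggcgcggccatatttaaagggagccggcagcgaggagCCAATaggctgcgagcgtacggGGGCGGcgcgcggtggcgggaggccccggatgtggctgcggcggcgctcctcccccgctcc
The 6 motifs searched on both strands were the ETS core CCGGAAG, the E-box CACGTG, the NRF1 core, the GC box GGGCGG, the CCAAT box and the TATA box TATAAA, none of which contains another. Windows of 25 members were in the RefSeq table used and were searched, and those of the other 8 were not analysed here. The ETS core occurred in 9 of them (36.0%), namely Snrpg, Snrpb2, Snrpc, Sf3a1, Sf3a2, Sf3a3, Sf3b2, Sf3b3 and Lsm5, against 13.8% of the 10685 windows of genes with a mean of at least 1 FPKM and 6.91% of all 32851 windows. The GC box occurred in 14 (56.0%) against 58.2% and 32.7% of the same backgrounds, and the CCAAT box in 8 (32.0%) against 35.4% and 33.8%. TATA boxes occurred in 2 members (8.0%) against 6.598% and 12.4%, and E-boxes in 1 (4.0%) against 8.53% and 6.02%, namely Snrpa, which holds both E-boxes shown above. None held the NRF1 core, which 1.67% and 0.78% of the backgrounds held. The ETS core was thus found in all 3 SF3a genes, in 2 SF3b genes and in Snrpg. These letter matches describe the windows and are not evidence of binding. The windows of Snrpg, Snrpd2, Lsm2, Lsm3, Snrpc, Snrpd3, Sf3a2 and Sf3a3 share 85 to 250 of their bases with exons of the same gene in GENCODE, so they are not printed, but they are counted above, also for the ETS core in Snrpg, Snrpc, Sf3a2 and Sf3a3.

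On the FPKM scale, which divides by transcript length, Sm ring genes had the highest median of the roles in WT epidermis, 118 FPKM. Single genes overlapped with other roles, since Lsmd1 stood at 109 FPKM and Sf3b5 at 90.2 FPKM, above Snrpf at 59.5 FPKM. The highest member was Snrpe at 182 ± 8.50 FPKM (SD, n = 2), and the next was Snrpd2 at 179 ± 28.5 FPKM, a difference smaller than the spread between libraries. The lowest of the Sm ring was Snrpn, the paralog of Snrpb known best from imprinting and neurons, at 5.93 ± 0.45 FPKM against 113 ± 0.44 FPKM for Snrpb. The gene rows of Snrpn and Snurf share 1 locus, so their reads could not be told apart. A further 10 members overlap a gene on the opposite strand, among them Snrpg, Snrpa, Sf3b4 and Lsm14a, and may hold reads of that gene if strand was not used. Snrpa1 overlaps the gene model Gm45213 on its own strand. SF3b genes had a median of 45.2 FPKM, the U1 and U2 genes 38.5 FPKM, Lsm ring genes 29.9 FPKM, the other Lsm genes 21.9 FPKM and SF3a genes 17.4 FPKM. Within the Lsm ring, Lsm4 led at 66.3 ± 4.51 FPKM, whereas Lsm1, which marks the cytoplasmic ring, stood at 4.87 ± 1.16 FPKM, and Lsm8, which takes its place in the nuclear ring, at 43.9 and 40.2 FPKM in the 2 WT libraries.

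The first question was whether the members differed in epidermis that lacks both Esrps. In DKO relative to WT, 28 of the 33 members (27 of 32 without Lsm7) had a higher and 5 a lower log2 value, but none was called. A call required a Benjamini-Hochberg adjusted p under 0.05 over all genes tested (limma) together with a difference above 2-fold, and 0.728% of all genes tested met it. The lowest adjusted p among the members was 0.29, for Sf3b4. At an unadjusted p below 0.05, 9 members were higher, against 6.15% of all genes tested, and none was lower, where 7.60% of all genes were. The 9 were Snrpg, Snrpd2, Snrpa, Snrpa1, Sf3b4, Lsm2, Lsm4, Lsm6 and Lsm7. With Snrpe, the same 9 made up the 10 members whose mean was at least 1.5-fold higher in DKO, a line that 19.2% of all genes tested and 13.6% of genes with a mean of at least 1 FPKM passed. The median log2 fold change of log2(FPKM + 1) was 0.34 over the members and 0.02 over all genes tested. It was 0.32 over 85 ribosomal protein genes and 0.38 over 81 respiratory chain genes, so this median did not set the members apart from those lists. Among the 32 members besides Lsm7, 8 had an unadjusted p below 0.05 and 9 were at least 1.5-fold higher. The count of 9 at an unadjusted p rested on single libraries, since it was 0 without DKO replicate 1, 1 without either WT library, 3 without DKO replicate 2 or KH replicate 1 and 5 without KH replicate 2. Without DKO replicate 1, 7 members lay above the 1.5-fold line.

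Sm ring genes were higher in DKO in all 8 cases, with a median log2 fold change of 0.40 and values from 0.20 to 0.87. Snrpg, the member with the largest value, stood at 140.1 and 107 FPKM in WT, at 242, 291 and 131 FPKM in KO, at 178 and 140.2 FPKM in KH and at 251 and 200.3 FPKM in DKO. Both DKO libraries lay above both WT libraries, and KO replicate 3 lay among the WT values. In DKO against WT this gave a log2 fold change of 0.87 ± 0.37 (SE, limma adjusted p = 0.35). Snrpd2, a core subunit that pairs with Snrpd1, stood at 199 and 159 FPKM in WT, at 250.3, 346 and 180.4 FPKM in KO, at 206 and 180.4 FPKM in KH and at 359 and 269 FPKM in DKO, with a log2 fold change of 0.80 ± 0.32 (SE, limma adjusted p = 0.33). Its 2 DKO libraries again lay above WT, while KO spread from the WT level to the DKO level. Snrpe reached 282 ± 49.4 FPKM in DKO against 182 ± 8.50 FPKM in WT (SD, n = 2 each), and the ratio was 1.56. The retro-copy Snrpert, with which Snrpe may share reads, stood at 102 and 83.7 FPKM in DKO and at 76.4 and 48.9 FPKM in WT. Snrpb, Snrpd1, Snrpd3 and Snrpf stood at 125% to 135% of their WT means, and Snrpn at 118%.

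**Figure D1:**
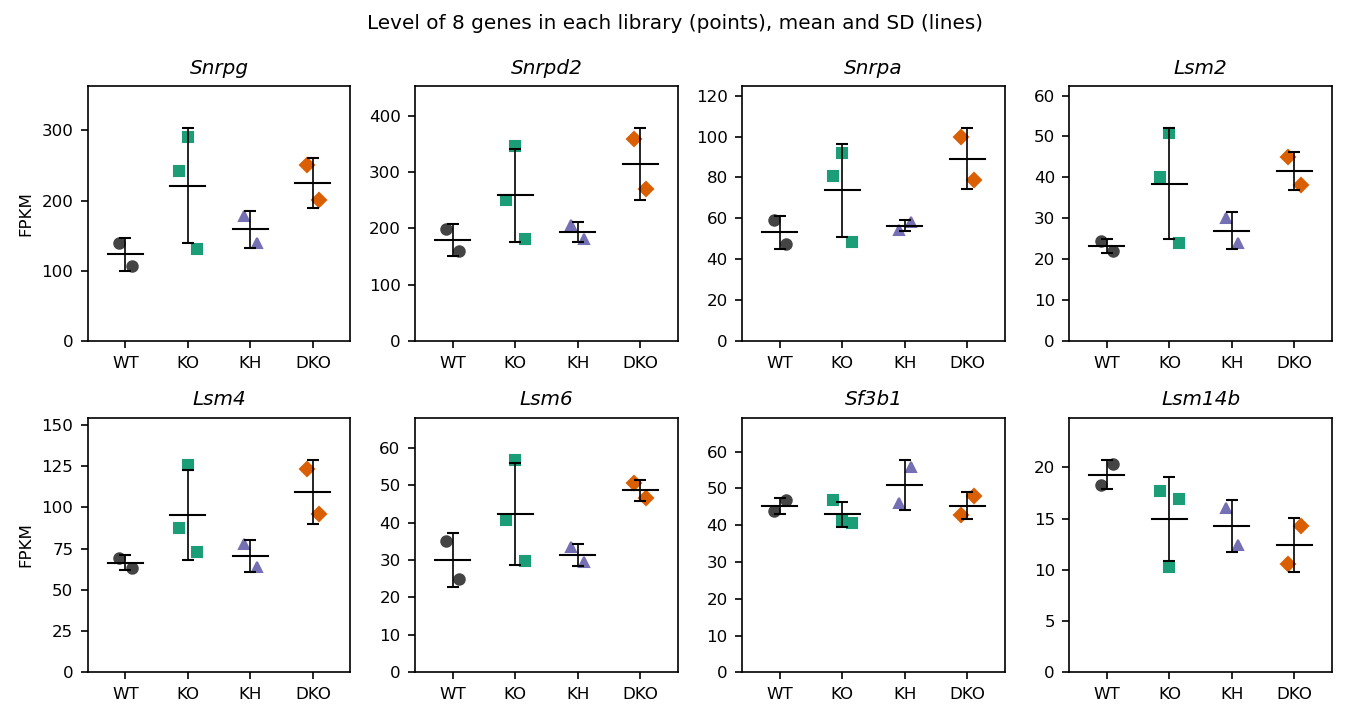
FPKM of 8 members (y axis, starting at 0) in each library of the 4 genotypes (x axis), with symbols for single libraries and black lines for the mean and SD. Snrpg, Snrpd2, Snrpa, Lsm2, Lsm4 and Lsm6 lie above WT in both DKO libraries and spread widely in KO, Sf3b1 lies between 40.7 and 55.7 FPKM with WT inside that range, and Lsm14b is below WT in both DKO libraries.

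The 4 proteins particular to U1 or U2 split. Snrpa, which binds a stem-loop of U1 RNA, stood at 59.0 and 47.5 FPKM in WT, at 80.6, 92.1 and 48.2 FPKM in KO, at 54.5 and 58.3 FPKM in KH and at 99.6 and 78.8 FPKM in DKO, and the log2 fold change in DKO was 0.73 ± 0.31 (SE, limma adjusted p = 0.35). KH lay within the WT range, and both DKO libraries lay above WT and KH. Its counterpart on U2, Snrpa1, stood at 32.4 and 25.5 FPKM in WT, at 42.8, 45.5 and 25.6 FPKM in KO, at 39.5 and 31.1 FPKM in KH and at 46.7 and 47.4 FPKM in DKO. The 2 DKO libraries were close together and exceeded all 7 others, with a log2 fold change of 0.69 ± 0.29 (SE, limma adjusted p = 0.35). In DKO, Snrpc of U1 stood at 130.3% of WT without overlap between libraries, and Snrpb2 of U2 at 109.7% with overlap.

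The large subunits of the branch point complexes hardly differed. Sf3b1, the scaffold that clamps the branch point, stood at 43.7 and 46.7 FPKM in WT, at 46.9, 41.4 and 40.7 FPKM in KO, at 46.0 and 55.7 FPKM in KH and at 42.6 and 47.9 FPKM in DKO, where the ratio to WT was 1.00 with a standard error of 0.19 on the log2 scale. Sf3a1 stood at 14.6 and 20.3 FPKM in WT, at 19.5, 14.6 and 17.3 FPKM in KO, at 19.7 and 14.1 FPKM in KH and at 14.7 and 19.4 FPKM in DKO. Its libraries of all genotypes covered the same range, with a log2 fold change of -0.03 ± 0.26 (SE, limma adjusted p = 0.98). Sf3b2 and Sf3b3 had ratios of 1.08 and 1.04, and Sf3a2 and Sf3a3 of 1.15 and 1.24. Of the small subunits of SF3b, Sf3b5 had a ratio of 1.33, and Sf3b4, an RNA-binding subunit, stood at 37.0 ± 2.42 FPKM in DKO against 23.7 ± 3.28 FPKM in WT (SD, n = 2 each). The log2 fold change of Sf3b4 was 0.63 ± 0.23 (SE, limma adjusted p = 0.29). Sf3b6, which the table holds under another symbol, had a ratio of 1.06 with overlapping libraries.

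Lsm ring genes had the largest median of any role, 0.69 on the log2 scale, and both DKO libraries exceeded both WT libraries in all 7. Without Lsm7 the median of the ring was 0.62 over 6 genes, and both DKO libraries lay above WT in all 6. Over the 33 members this held for 22, where 27.8% of all genes tested did the same, and 3 members lay below WT in both DKO libraries, where 26.4% did. Without Lsm7 it held for 21 of 32. Lsm2, shared by the nuclear and the cytoplasmic ring, stood at 24.4 and 22.0 FPKM in WT, at 40.2, 51.0 and 24.0 FPKM in KO, at 30.1 and 23.8 FPKM in KH and at 44.9 and 38.2 FPKM in DKO, with a log2 fold change of 0.81 ± 0.32 (SE, limma adjusted p = 0.32). KO replicate 3 and KH replicate 2 were again at the WT level. Lsm4, another shared subunit, stood at 69.5 and 63.1 FPKM in WT, at 87.4, 126 and 72.7 FPKM in KO, at 77.6 and 63.7 FPKM in KH and at 123 and 95.8 FPKM in DKO. The log2 fold change was 0.70 ± 0.28 (SE, limma adjusted p = 0.32). Lsm6, also of both rings, stood at 35.2 and 25.0 FPKM in WT, at 40.6, 56.7 and 29.6 FPKM in KO, at 33.4 and 29.3 FPKM in KH and at 50.6 and 46.7 FPKM in DKO. Its log2 fold change was 0.69 ± 0.30 (SE, limma adjusted p = 0.36). Lsm7 was the only member above 2-fold, with a ratio of 2.49, but it ranged only from 0.58 to 0.97 FPKM in WT and from 1.52 to 2.34 FPKM in DKO, and on the scale of log2(FPKM + 1), which shrinks the change of so low a gene, its log2 fold change was 0.72. The cytoplasmic Lsm1 and the nuclear Lsm8 stood at 131% and 112% of WT.

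Lsm14b and Lsm14a, which belong to mRNPs of stored and repressed mRNA, had lower values in DKO. Lsm14b stood at 18.3 and 20.3 FPKM in WT, at 17.7, 10.3 and 16.9 FPKM in KO, at 16.1 and 12.5 FPKM in KH and at 10.6 and 14.3 FPKM in DKO, so WT held the 2 highest values of all. In DKO the log2 fold change was -0.61 ± 0.29 (SE, limma adjusted p = 0.40), and Lsm14b was the 1 member at least 1.5-fold lower, where 16.3% of all genes tested were. That single count became 0 without DKO replicate 1 or without WT replicate 2, and 2 without DKO replicate 2 or without WT replicate 1. The authors report Lsm14b as an Esrp splicing target, with a cassette exon whose inclusion rises gradually from WT to DKO. FPKM per gene does not separate these isoforms, and whether the exon bears on the level was not tested. Lsm14a stood at 41.4 and 49.6 FPKM in WT, at 40.9, 32.7 and 45.2 FPKM in KO, at 47.5 and 31.5 FPKM in KH and at 27.0 and 35.6 FPKM in DKO. Both DKO libraries were below WT, with a log2 fold change of -0.53 ± 0.27 (SE, limma adjusted p = 0.41), and KO and KH overlapped with WT. Lsm11 of the U7 particle stood at 2.60 and 2.98 FPKM in WT, at 3.03, 2.71 and 3.05 FPKM in KO, at 2.63 and 2.39 FPKM in KH and at 2.46 and 2.57 FPKM in DKO, a narrow range in every genotype. Lsm10, its partner in the U7 ring, had a ratio of 1.32 with overlapping libraries.

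**Figure D2:**
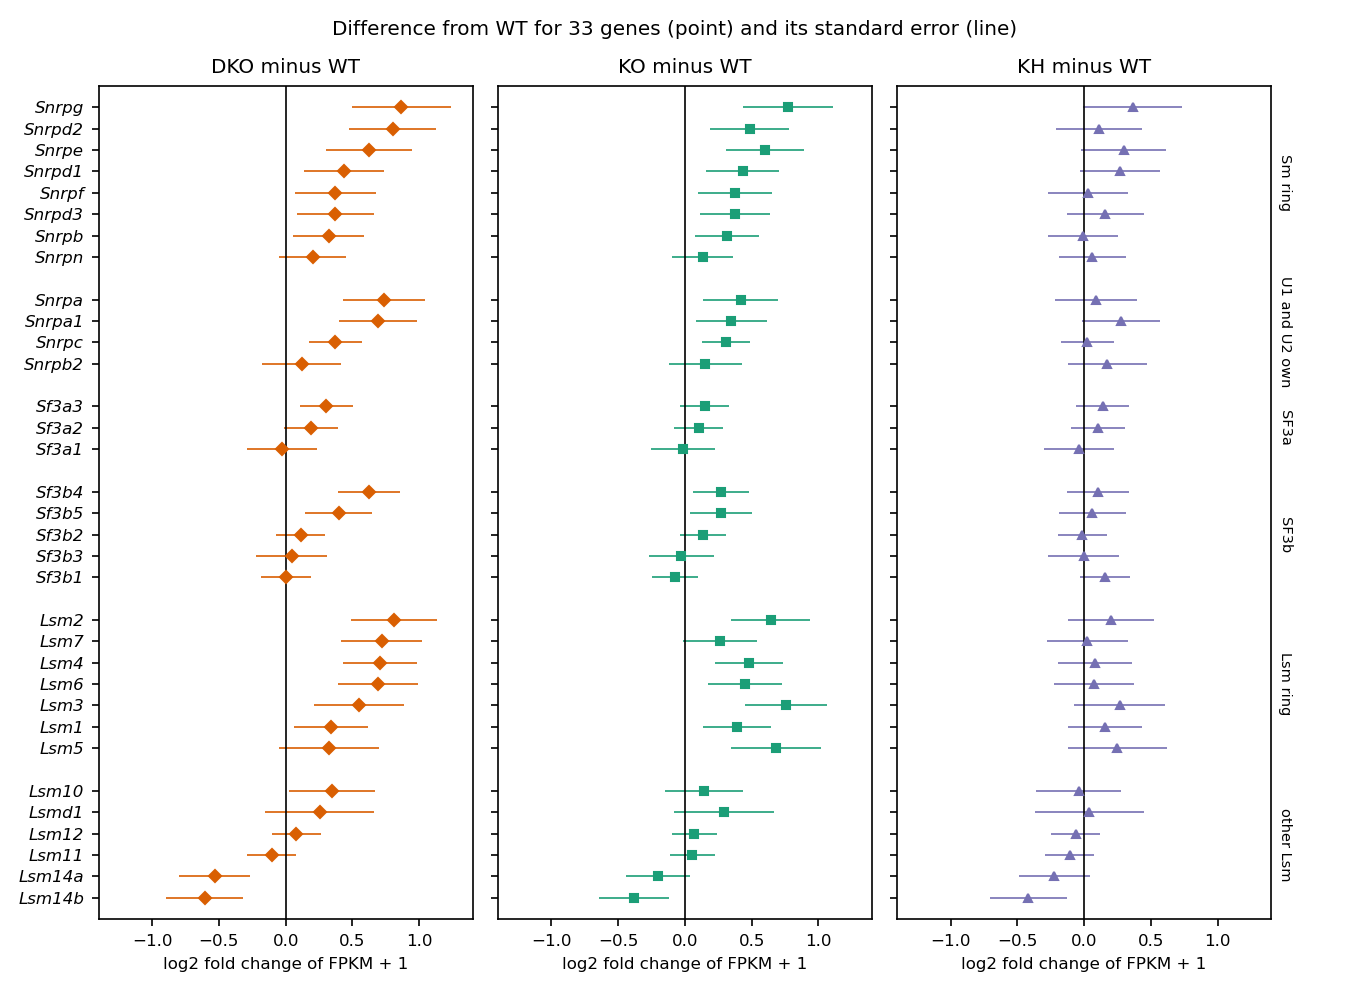
Log2 fold change of FPKM + 1 against WT (x axis) for the 33 members, grouped by role (y axis), in DKO, KO and KH, with the point for the estimate and the line for 1 standard error. In DKO the Sm ring and Lsm ring genes all lie right of 0, Sf3b1, Sf3b3 and Sf3a1 lie at 0, and Lsm14a and Lsm14b lie left of it.

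Loss of Esrp1 alone and with 1 Esrp2 allele was compared with the same 2 WT libraries, so the 3 comparisons with WT share their control. In KO, 28 members had higher and 5 lower log2 values, with a median of 0.29. The ribosomal protein and respiratory chain genes had medians of 0.27 and 0.23 in KO. None was called where 0.0296% of all genes were, and the unadjusted p was below 0.05 for 2 members, Lsm3 and Snrpg, both higher, where 2.25% of all genes tested were (limma). Lsm3 stood at 82.9, 104 and 52.9 FPKM in KO against 46.7 and 43.6 FPKM in WT, with a log2 fold change of 0.76 ± 0.31 (SE, limma adjusted p = 0.85). A total of 6 members were at least 1.5-fold higher in KO (Lsm2, Lsm3, Lsm5, Lsm7, Snrpe and Snrpg), where 12.7% of all genes tested were, and none was 1.5-fold lower, where 8.71% were. Without Lsm7, whose value in KO the rule also favoured, 5 of the other 32 members did so. For Lsm7 the ratio of mean FPKM was 1.55, but its libraries overlapped with WT and its log2 fold change on the FPKM + 1 scale was 0.26. The counts rested on single libraries. Past the 1.5-fold line, leaving out KO replicate 2 gave 2 members, leaving out KO replicate 3 gave 15, and leaving out WT replicate 1 gave 13, while at an unadjusted p below 0.05 there were 15 without KO replicate 3, 1 without KH replicate 1, 2 without KH replicate 2 and 0 when any 1 of the other 6 libraries was left out. In 8 members all KO libraries lay above WT, where 12.6% of all genes did, and in 1, Lsm14b, all lay below, where 12.1% did.

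In KH the median log2 fold change was 0.08, with 0.22 when KH replicate 2 was left out and -0.02 when KH replicate 1 was. Leaving out a WT library gave 0.15 (replicate 1) or 0.02 (replicate 2). In the fit of all libraries no member was called where 0.0296% of all genes were, none had an unadjusted p below 0.05 where 3.72% of all genes did and 1.63% were higher at that p (limma), and none was 1.5-fold higher or lower, where 14.7% and 8.26% of all genes tested were. Snrpg and Snrpe were the 2 members with both KH libraries above WT, where 15.3% of all genes were, and Lsm14b the 1 with both below, where 16.6% were. Without KH replicate 2, 3 members passed the 1.5-fold line upward, and without KH replicate 1, 1 passed it downward.

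Among the genotypes without Esrp1, no member was called in DKO against KO, DKO against KH or KH against KO, where 0.639%, 0.426% and 0 of all genes were called (limma). DKO and KO overlapped in 29 of 33 members (28 of 32 without Lsm7), DKO lying above in 3, where 11.2% of all genes tested did, and below in 1, where 9.88% did. The median log2 fold change was 0.06, no member had an unadjusted p below 0.05, where 6.80% of all genes did and 3.67% were higher at that p, 1 was at least 1.5-fold higher, Lsm7, where 10.3% were, and none lower, where 10.2% were. Without KO replicate 3, 0 were higher and 1 lower, and without DKO replicate 1, 0 were higher. DKO libraries lay above both KH libraries in 13 members (12 of 32 without Lsm7), where 14.3% of all genes did, with a median of 0.22, 6 members at least 1.5-fold higher, where 10.2% were, and 1 with an unadjusted p below 0.05, Lsm7, where 3.20% were. The other 5 past the line were Snrpd2, Snrpa, Lsm2, Lsm4 and Lsm6, with ratios from 1.54 to 1.63. That count was 1 (Lsm7) without DKO replicate 1 and 11 without KH replicate 1, and no member besides Lsm7, which the rule favoured, had an unadjusted p below 0.05. None lay below KH in both libraries, where 14.5% did, and none was 1.5-fold lower, where 13.0% were. KH against KO had a median of -0.21, with no unadjusted p below 0.05, where 1.09% of all genes had one and 0.580% were higher at that p. Lsm7 was the 1 member at least 1.5-fold lower, where 4.87% of all genes tested were, and none was higher, where 7.88% were. The count lower was 0 without KO replicate 1 or 2, 5 without KH replicate 1 and 10 without KO replicate 3. All KH libraries lay below KO in 3 members, where 3.77% did, and above in none, where 3.58% did.

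The libraries of a genotype were not alike, and the members differed between them by role. As the median log2 difference from the WT mean, Sm ring genes stood at 0.14 and -0.14 in the WT libraries, at 0.48, 0.75 and 0.06 in the KO libraries, at 0.36 and 0.03 in the KH libraries and at 0.54 and 0.40 in the DKO libraries. Lsm ring genes, taken in that order, stood at 0.08 and -0.08, at 0.44, 0.91 and 0.09, at 0.33 and -0.02, and at 0.75 and 0.51. The SF3b genes spanned only -0.17 to 0.21 over all 9 libraries. KO replicate 3 and KH replicate 2 thus lay with WT, and the 5 other mutant libraries above them.

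The same values were taken for lists of other mostly short mRNAs. The 85 ribosomal protein genes stood at 0.61 in DKO replicate 1 and 0.75 in KO replicate 2 and between -0.03 and 0.15 in the other 7 libraries, and the 81 respiratory chain genes at 0.65 and 0.67 in the same 2 libraries and between -0.13 and 0.10 elsewhere. Those 2 libraries also had the largest FPKM sums over all genes, 1112137 and 1130713, where the others ranged from 713318 to 925443. The Sm ring and Lsm ring genes were high in these 2 libraries and, unlike both other lists, also in DKO replicate 2, KO replicate 1 and KH replicate 1. With DKO replicate 1 and KO replicate 2 both left out, the members' median log2 fold change was 0.30 in DKO and 0.20 in KO, and 7 and 2 members were at least 1.5-fold higher.

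The 8 proliferation markers ran alongside the members. Their sum was 218 and 191 FPKM in WT, 398, 302 and 232 FPKM in KO, 378 and 175 FPKM in KH and 255 and 365 FPKM in DKO. The 5 libraries with the highest sums were the same 5 in which the members' median was highest, although not in the same order. All 8 markers had a higher mean in DKO than in WT, with a median log2 fold change of 0.51. The summed basal keratinocyte markers had the same 5 libraries on top, from 6419 to 8537 FPKM there and from 4137 to 5352 FPKM in the other 4, a sum that is mostly Krt5 and Krt14. Krt15 of the same list went the other way, with 990.3 and 1109 FPKM in WT and 288 to 676 FPKM in the 7 mutant libraries. Of the 7 basal markers 5 were higher and 2 lower in DKO than in WT, and the 1 with an unadjusted p below 0.05, Krt15, was lower with a log2 fold change of -1.27 (limma adjusted p = 0.21). By contrast, of the 5 libraries with the highest spinous sums only 1 was shared. In DKO against WT all 6 spinous markers had a lower log2 value, with a median log2 fold change of -0.78, and 2 had an unadjusted p below 0.05 (limma). All 6 granular and cornified markers were lower too, with a median of -0.23, and 1 had such a p, where 7.60% of all genes tested were lower at that p. The granular and cornified sum ran from 4295 to 5809 FPKM in KO replicate 1, KH replicate 1 and DKO replicate 2 and from 9095 to 12606 FPKM in the other 6 libraries. The immune sum was 41.8 and 21.3 FPKM in DKO, 18.4 and 10.01 FPKM in WT, 18.8, 26.6 and 15.8 FPKM in KO and 14.4 and 40.6 FPKM in KH. The melanocyte sum was 47.8 and 43.7 FPKM in WT, 83.4, 79.9 and 68.0 FPKM in KO, 152 and 57.3 FPKM in KH and 94.9 and 208 FPKM in DKO, so every mutant library lay above WT. The red cell sum ranged from 15.3 FPKM in KH replicate 1 to 1520 FPKM in DKO replicate 2, with 624 and 92.9 FPKM in WT, and all 5 of its genes had a higher mean log2 value in DKO than in WT, with a median log2 fold change of 1.72. The part of proliferation and of cell type shares in the members' levels was not tested, and in bulk tissue more cells of a type and more RNA per cell cannot be told apart.

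**Figure D3:**
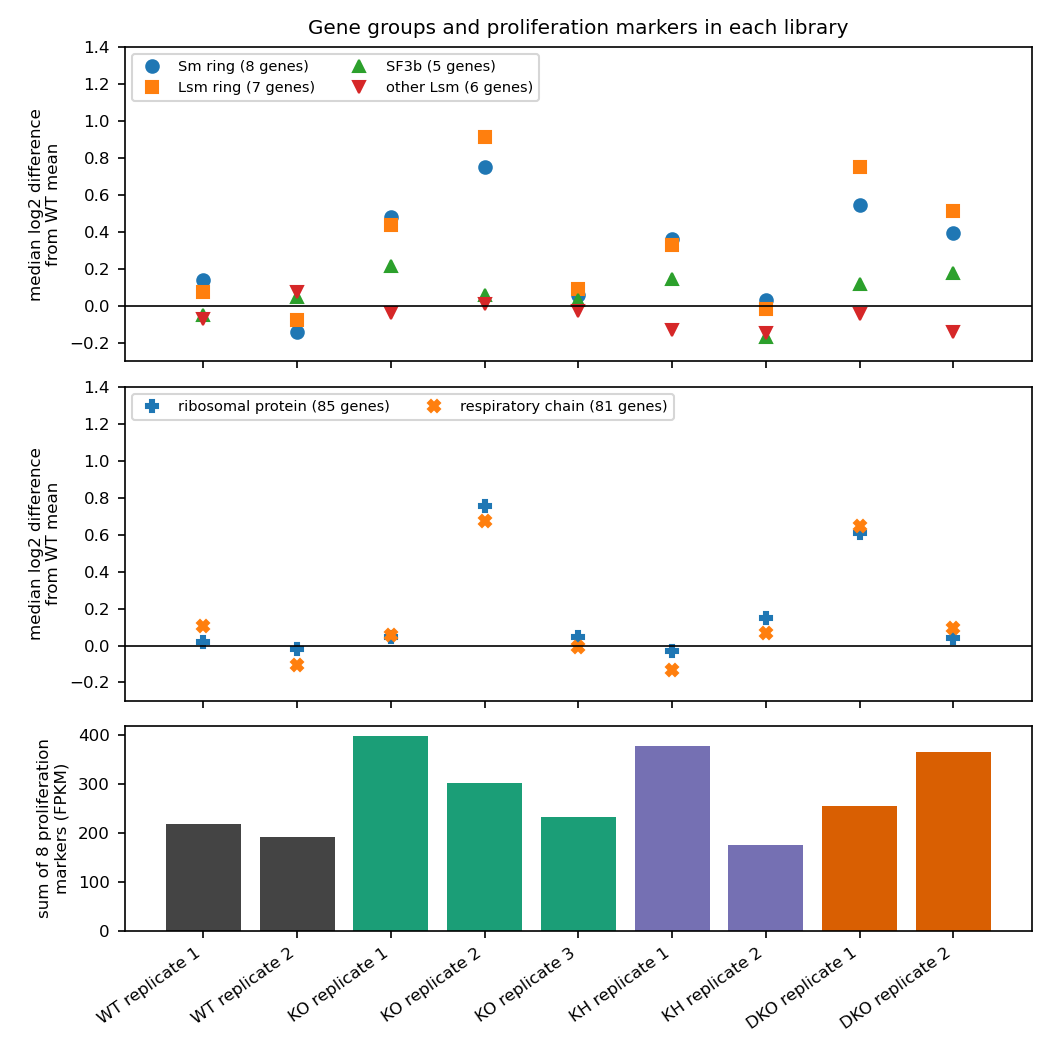
Median log2 difference from the WT mean (top panels, y axis) of 4 member groups and 2 comparison lists, and the summed FPKM of 8 proliferation markers (bottom bars), in each library (x axis). The ribosomal protein and respiratory chain lists are high in KO replicate 2 and DKO replicate 1 only, whereas Sm and Lsm ring genes are also high in KO replicate 1, KH replicate 1 and DKO replicate 2, where the proliferation sum is 365 FPKM or more.

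Transcript length also ran with the difference between DKO and WT. Over the 12065 genes with a mean of at least 1 FPKM and a known length, the median log2 fold change was 0.16 below 1000 nt, 0.08 from 1000 to 2000 nt, -0.06 from 2000 to 4000 nt and -0.18 above. The members in the same classes had medians of 0.38 (14 genes), 0.37 (11 genes), 0.10 (4 genes) and -0.01 (4 genes), above the median of all genes of the class in each. After a loess correction for length the members' median in DKO was 0.28, and 8 members were at least 1.5-fold higher. The correction also lowered the medians of DKO replicate 1 and KO replicate 2. They became 0.34 and 0.44 for ribosomal protein genes, 0.39 and 0.40 for respiratory chain genes and 0.30 and 0.34 for the members. In DKO replicate 2 the members' median was 0.30 before and 0.32 after it. Sf3b1 was then at 0.20 and Sf3a1 at 0.15 on the log2 scale, and Lsm14b at -0.51.

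**Figure D4:**
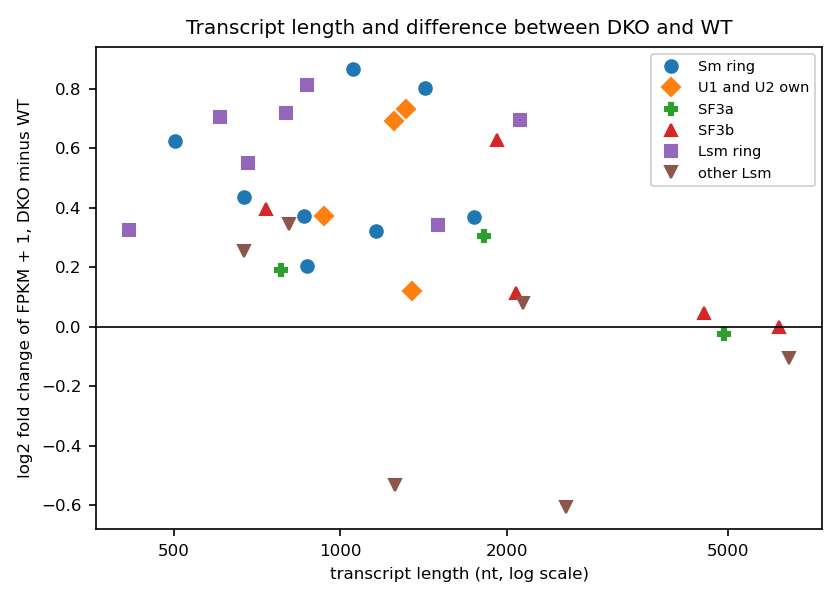
Log2 fold change of FPKM + 1 between DKO and WT (y axis) against transcript length in nt (x axis, log scale) for the 33 members, with a symbol for each role. Members longer than 4000 nt lie near 0, the shorter Sm ring, Lsm ring, U1 and U2 genes lie above 0, and Lsm14a and Lsm14b lie lowest.

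The partners of these complexes were listed by function and named whatever their values. In DKO against WT, 0.728% of all genes tested were called, 13.8% had an unadjusted p below 0.05, 19.2% were at least 1.5-fold higher and 16.3% at least 1.5-fold lower, shares against which the partner counts are to be read. Among 30 other snRNP and spliceosome genes none was called in DKO against WT (limma), 1 had an unadjusted p below 0.05, 21 were higher and 9 lower, and the log2 fold change had a median of 0.18 and ran from -0.83 to 0.99. The one below 0.05 was Eftud2, the GTPase of U5, at 77.0 and 57.7 FPKM in DKO and 37.3 and 29.3 FPKM in WT, with a log2 fold change of 0.99 ± 0.39 (SE, limma adjusted p = 0.32). The lowest was Snrnp25, a protein of the minor spliceosome that was named after its values were seen, at 65.4 and 27.9 FPKM in DKO and 83.3 and 70.7 FPKM in WT, with a log2 fold change of -0.83 ± 0.46 (SE, limma adjusted p = 0.45). The U5 partners of Eftud2, Prpf8 and Snrnp200, had ratios of 0.84 and 0.86 with overlapping libraries. Snrnp70, the U1 protein beside Snrpa, had a ratio of 1.32, Txnl4a of 1.43, U2af1 of 1.31, U2af2 of 1.23, Phf5a, a small SF3b subunit, of 1.14 and Nhp2l1 of 1.13.

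The factors that build Sm rings were followed in the same way. Of 18 assembly genes none was called, none had an unadjusted p below 0.05 (limma), 12 were higher and 6 lower, and the median was 0.12, with values from -0.58 to 0.45. The lowest was Gemin4 of the SMN complex, also named after its values were seen, at 3.08 and 3.68 FPKM in DKO and 4.83 and 6.31 FPKM in WT, the 1 gene of this list at least 1.5-fold lower. Smn1 stood at 125% of its WT mean, Gemin6 at 129%, Gemin2 at 97.9% and Gemin5 at 94.7%, while Prmt5 and Wdr77, which methylate Sm proteins, stood at 109.7% and 105% and Coil, the scaffold of Cajal bodies, at 104%. On the decay side, 6 of 8 partners were lower, with a median of -0.21 and none called. Ddx6, the helicase that binds Lsm14 proteins, stood at 22.7 and 23.8 FPKM in DKO and at 35.7 and 42.1 FPKM in WT, with a log2 fold change of -0.71 ± 0.24 (SE, limma adjusted p = 0.25). It was the 1 decay partner with an unadjusted p below 0.05, and it lay on the same side as Lsm14a and Lsm14b. Patl1 and Dcp2 had ratios of 0.95 and 1.02, and Xrn1 of 0.66 with overlapping libraries. Of 6 genes for histone mRNA ends, 4 were higher and none was called, and Slbp, which binds the histone stem-loop, had a ratio of 1.39 with both DKO libraries above WT.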

How the data were processed

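The authors isolated poly(A) RNA libraries with a stranded kit from epidermis that was separated with trypsin, mapped paired reads with TopHat 1.4.1 to mm10 and estimated the deposited FPKM values per gene with Cuffdiff 2.2.0. How Cuffdiff scaled the libraries, and whether strand was used, is not given in the sources used here. The depth of each library is unknown from FPKM, and no counting interval is given. Values were analysed as log2(FPKM + 1), with no further scaling, for the 16897 genes with an average above 0.1 FPKM in at least 1 genotype. A single model over the 9 libraries (limma 3.58.1, R 4.3.3) held 4 genotype means, with an eBayes trend and 5 residual degrees of freedom, and p-values were adjusted by Benjamini-Hochberg over all genes tested. A call needed an adjusted p below 0.05 and a difference above 2-fold in mean FPKM. This scale understates the fold change of low genes. The fit was also run on simulated data with independent noise in each library, which leaves out the differences between libraries described above, so no result rests on it. Lengths came from GENCODE M21, limited to the span of the locus in the table, and promoters from RefSeq. Replicates were separate embryos. The members and all gene lists were chosen with earlier results of these data known. Every member could be named, with values by library for the 8 highest and 4 lowest in DKO against WT (Lsm7 by range), and 21 partners were named whatever their values. Alternatives covered the pseudocount, filter, scaling, weights, length, the replicate block and each library left out.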

Additional observations from a re-analysis of the deposited data

How the results depend on the processing

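No member was called in any of the 6 comparisons under the alternative settings tried. Leaving out both libraries with the largest FPKM sums, and the alternatives for the 1.5-fold counts among the mutants and for counts at an unadjusted p, were chosen after seeing the data. The lowest adjusted p of a member in DKO against WT was 0.29 in the reported fit, 0.097 over the other settings with all libraries and 0.15 with 1 library left out (limma). In DKO against WT the count of members at least 1.5-fold higher was 1 at a 2-fold line and 20 at the loosest line tried, and the count lower was 0 at 2-fold and 2 at the loosest line, 0 after quantile normalization, after length correction and without both libraries of the largest FPKM sums, and 0 to 2 with 1 library left out. In KO the count higher was 0 at 2-fold, 18 at the loosest line, 2 without both of those libraries and 2 to 15 with 1 library left out, and 1 was lower at the loosest line. In KH, 2 were higher and 1 lower at the loosest line, with 0 to 3 and 0 to 1 when 1 library was left out. Among the mutants, with 1 library left out, 0 to 1 were higher and 0 to 1 lower in DKO against KO, 1 to 11 and 0 to 1 in DKO against KH, and 0 to 10 were lower in KH against KO, and without both libraries of the largest FPKM sums 1 was higher in DKO against KH and 0 lower in KH against KO. Members higher at an unadjusted p below 0.05 numbered 0 to 10 in DKO and 0 to 15 in KO against WT with 1 library left out, and 0 in each without both libraries (limma). The members' median ranged over all settings from 0.28 to 0.49 in DKO, 0.20 to 0.43 in KO and -0.02 to 0.22 in KH.

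Of 693 values of single members in DKO against WT, 671 kept their direction. The 22 that reversed belonged to 8 members, and none was past a threshold. Sf3a1 was at 8.91e-05 with median ratio scaling, 0.0363 with quantile normalization, 0.15 after length correction, 0.16 without DKO replicate 1, alone or with KO replicate 2, and from -0.25 to 0.20 with 1 library left out. Sf3b1 was at 0.0257, 0.0302, 0.20 and 0.0822 in the same order, and from -0.0825 to 0.0822 with 1 library left out. Sf3b3 was at -0.0232 as TPM and from -0.12 to 0.22 with 1 library left out. Without DKO replicate 1, alone or with KO replicate 2, Lsm10 was at -0.0123 and Lsmd1 at -0.20, and their highest values with 1 library left out were 0.70 and 0.71. Lsm11 was at 0.10 after length correction, and with 1 library left out Lsm12 ranged from -0.0567 to 0.22 and Snrpb2 from -0.0663 to 0.30. The cause was not tested.

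The deviations of same-numbered libraries from their group means correlated at 0.49 and 0.35 between KH and KO and at 0.14 between DKO and WT, but between -0.60 and 0.0356 for the other genotype pairs. These numbers, from the sample titles, were therefore not taken to pair the embryos. The deposited columns number several libraries otherwise, both DKO libraries among them, and pairing by those numbers was not tested. With a replicate block by title number the count of members called was 0, and the median in KO was 0.43. The counts at the 1.5-fold line use mean FPKM, which the block cannot change, so they are no check of it.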
